A study of Homo sapiens with 6 samples.

Results

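The genes described here are the 9 that code for the import of cystine, its supply by transsulfuration, and the making, recycling and breakdown of glutathione: SLC7A11, CBS, CTH, GCLC, GCLM, GSS, GSR, CHAC1 and CHAC2. They were taken by symbol from the gene table, and all 9 were among its 36459 symbols. RNA was sequenced from PC9, a cell line from a human lung adenocarcinoma, in 2 conditions with 3 libraries each. The parental libraries came from 3 independent cultures without drug. The persister libraries were pooled from 9 cultures that had been in erlotinib at 15 µM for 6 days. Erlotinib blocks the EGFR kinase, and it was present in every persister culture and no parental one, so the persister state and the presence of erlotinib cannot be told apart. All libraries are of 1 cell line, and no drug-free recovery library was analysed here.

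Cystine enters the cell through system xc-, an exchanger made of SLC7A11 and the heavy chain SLC3A2 that gives out glutamate in return. Inside, cystine is reduced to cysteine, which can also be made from methionine by transsulfuration, first by CBS and then by CTH. Glutamate-cysteine ligase, with the catalytic subunit GCLC and the modifier subunit GCLM, joins cysteine to glutamate, and GSS adds glycine to give glutathione. GSR returns oxidized glutathione to its reduced form, while CHAC1 and CHAC2 cleave glutathione inside the cell. Glutathione is the cosubstrate with which GPX4 removes lipid peroxides, and for this reason the supply of cystine is a known determinant of ferroptosis.

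Estimated gene counts summed to between 29476725 and 34893782 per library, and the TMM-normalized CPM used below are counts scaled to a common library size. Of 8 markers of lung epithelium fixed for the check, EPCAM, CDH1 and the keratins were abundant, while NKX2-1 and NAPSA were nearly absent, with at most 1 and 11 counts in any library. The 8 markers of blood, endothelium and fibroblasts summed to 89.3 to 91.7 CPM in parental and 46.5 to 53.1 CPM in persister libraries, and CD3E had a count of 0 in all 6. Of these, CD68 (74.8 to 21.1 CPM) and the scarce PECAM1 (4.37 to 0.214 CPM) were lower in persister libraries and COL1A1 (10.2 to 28.3 CPM) was higher. Among the epithelial markers KRT8, KRT18, KRT19 and EPCAM were lower in persister libraries, by 1.74, 1.90, 2.04 and 1.14 times, and CDH1 and KRT7 were 1.52 and 1.37 times higher. The part of these shifts in the results below was not tested. Libraries of 1 condition differed by more than sampling noise (chi-square divided by its degrees of freedom, 3.53 to 21.1), and each was kept as a replicate. Of the 14626 genes tested with edgeR's quasi-likelihood test, 56.8% differed between the conditions, with 28.7% higher and 28.1% lower in persister cells. The limit was 0.01 on the p adjusted by Benjamini-Hochberg over all genes tested, and the count of changed genes among the 9 has to be read against that background.

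Of the 9 genes, 4 were higher in persister cells (CHAC1, CTH, SLC7A11 and CHAC2), 3 were lower (GCLC, GSR and GCLM), and CBS and GSS did not pass the limit. Called were thus 77.8% of the 9, which were chosen with earlier results of these data known, against 56.8% of all genes tested. Those that rose code for cystine import, transsulfuration and glutathione cleavage, and those that fell for glutathione synthesis and recycling. CBS of transsulfuration and GSS of synthesis did not go with them, and the fall of GCLM was small (log2 fold change -0.22). In 7 genes, 77.8% of the 9, the groups did not overlap, against 71.3% of all genes tested. The median log2 fold change of the 9 was 0.072 and the median of its absolute size 0.57, against -0.0061 and 0.33 over all genes tested. With 3 libraries a condition, permuting the labels exactly gives 1 gene a p of 0.1 at best, which is why p-values of genes are from edgeR's fit over the whole table. They set a difference against the spread between these libraries, which edgeR moderates with that of the other genes tested. A parental library was 1 culture and a persister library a pool, so the spread between single persister cultures is not seen. In bulk RNA fewer cells of a kind and less RNA per cell cannot be told apart.

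**Figure D1:**
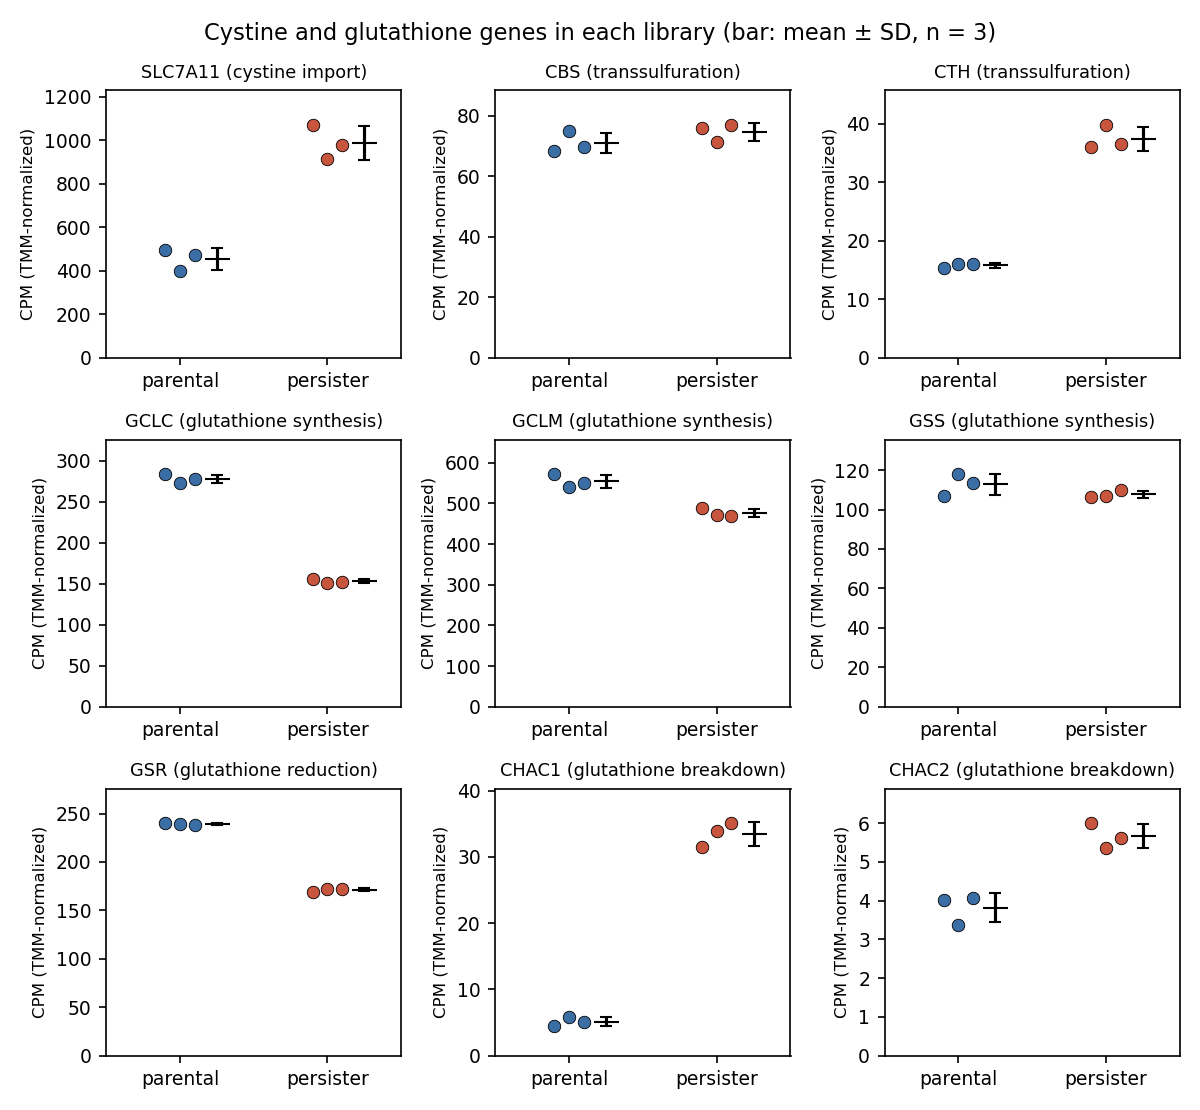
TMM-normalized CPM of each of the 9 genes (vertical axes, linear and from 0) in the 3 parental and 3 persister libraries (points), with the group mean ± SD beside them. SLC7A11, CTH, CHAC1 and CHAC2 lie higher in every persister library than in any parental library, GCLC, GCLM and GSR lie lower, and the groups of CBS and GSS overlap.

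SLC7A11 (ENSG00000151012, chromosome 4 of GRCh38, 138164097 to 138242349, minus strand) had 493, 396 and 472 CPM in parental replicates 1, 2 and 3, and 1068, 914 and 977 CPM in persister replicates 1, 2 and 3. The lowest persister library was thus well above the highest parental one, a 2.17-fold difference of the means (log2 fold change 1.12, 95% interval 0.95 to 1.29, edgeR adjusted p = 3.41e-07). Its partner SLC3A2, which also carries other amino acid transporters, had 311, 362 and 340 CPM in parental and 1092, 1113 and 1148 CPM in persister libraries. This was a rise of 1.73 on the log2 scale (standard error 0.053, edgeR adjusted p = 5.80e-10).

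Because SLC3A2 rose more than SLC7A11, the ratio of the transporter subunit to the heavy chain went down. The log2 ratio of SLC7A11 to SLC3A2 CPM was 0.67, 0.13 and 0.47 in the parental libraries and -0.033, -0.28 and -0.23 in the persister libraries. The groups did not overlap, and the difference of -0.61 had the smallest p-value that 3 against 3 libraries allow (two-sided exact permutation test, p = 0.1). Of the 4 ratios between genes tested in this way, all 4 gave that smallest value, which stays at 0.1 after Benjamini-Hochberg adjustment over the 4.

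The 2 enzymes of transsulfuration parted. CBS (ENSG00000160200, chromosome 21, 43053191 to 43076943, minus strand), which joins homocysteine and serine to cystathionine, had 68.2, 74.8 and 69.7 CPM in parental and 75.7, 71.1 and 76.8 CPM in persister libraries. The groups overlapped, and a log2 fold change of 0.072 was short of the limit (95% interval -0.036 to 0.18, edgeR adjusted p = 0.211). CTH (ENSG00000116761, chromosome 1, 70411218 to 70439851, plus strand), which cleaves cystathionine to cysteine, had 15.3, 16.1 and 16.0 CPM in parental and 36.0, 39.7 and 36.5 CPM in persister libraries. No parental library came near a persister one, and the means differed 2.37-fold (log2 fold change 1.24, 95% interval 1.12 to 1.37, edgeR adjusted p = 1.28e-08).

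The log2 ratio of CTH to CBS CPM went from -2.17 ± 0.047 (SD, n = 3) in parental to -0.99 ± 0.13 (SD, n = 3) in persister libraries, a difference of 1.17 (two-sided exact permutation test, p = 0.1, the smallest possible). The near-identical copy CBSL, between which and CBS the counting could divide reads, had between 0 and 17 counts per library, at most 0.754% of the counts of both. Adding the copies together left CBS short of the limit.

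Of the 3 genes that code for the synthesis of glutathione, that of the catalytic subunit of the ligase fell most. GCLC (ENSG00000001084, chromosome 6, 53497341 to 53616970, minus strand) had 283, 273 and 278 CPM in parental and 156, 151 and 152 CPM in persister libraries. Parental libraries were thus 1.82-fold higher on average, with little spread in either group (log2 fold change -0.86, 95% interval -0.94 to -0.79, edgeR adjusted p = 4.62e-09). GCLM (ENSG00000023909, chromosome 1, 93885199 to 93909456, minus strand), the modifier subunit, had 571, 539 and 551 CPM in parental and 489, 471 and 469.9 CPM in persister libraries. The groups did not overlap, but the fall was small (log2 fold change -0.22, 95% interval -0.30 to -0.14, edgeR adjusted p = 0.000284).

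The log2 ratio of GCLC to GCLM CPM was -1.01, -0.98 and -0.99 in the parental libraries and -1.65, -1.64 and -1.63 in the persister libraries. Of the 4 ratios it had the smallest spread within a group, and the groups stood apart by -0.65 (two-sided exact permutation test, p = 0.1, the smallest possible). GSS (ENSG00000100983, chromosome 20, 34928432 to 34956027, minus strand) had 107, 118 and 113 CPM in parental and 107, 107 and 109.9 CPM in persister libraries. These groups overlapped, and a log2 fold change of -0.064 did not pass the limit (95% interval -0.16 to 0.032, edgeR adjusted p = 0.210). An interval of that width does not show that GSS was the same in both conditions, but it leaves out a change as large as that of GCLC.

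GSR (ENSG00000104687, chromosome 8, 30678066 to 30727846, minus strand), the NADPH-dependent reductase of oxidized glutathione, had 239.9, 239 and 238 CPM in parental and 169, 172 and 172 CPM in persister libraries. The parental mean was 1.39-fold the persister mean (log2 fold change -0.48, 95% interval -0.55 to -0.41, edgeR adjusted p = 2.82e-07). The range within each group of GSR was narrow beside the gap between the groups.

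CHAC1 (ENSG00000128965, chromosome 15, 40952962 to 40956512, plus strand) moved most of the 9. It had 4.47, 5.79 and 5.14 CPM in parental and 31.5, 33.9 and 35.1 CPM in persister libraries, from 154, 197 and 173 counts to 920, 1066 and 1198 counts. The difference of the means was 6.52-fold (log2 fold change 2.71, 95% interval 2.52 to 2.89, edgeR adjusted p = 7.19e-10), and in absolute size it was above that of 98.4% of the genes tested. CHAC2 (ENSG00000143942, chromosome 2, 53767804 to 53775196, plus strand), the other cytosolic enzyme of this kind, was scarce in both conditions, with 138, 115 and 137 counts in parental and 175, 169 and 192 counts in persister libraries. This gave 4.01, 3.38 and 4.07 CPM against 5.99, 5.37 and 5.62 CPM, without overlap and with a wider interval than for the other genes (log2 fold change 0.57, 95% interval 0.33 to 0.81, edgeR adjusted p = 0.000816).

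The log2 ratio of CHAC1 to CHAC2 CPM was 0.16, 0.78 and 0.34 in the parental libraries and 2.39, 2.66 and 2.64 in the persister libraries. The difference of 2.14 was the largest of the 4 ratios tested (two-sided exact permutation test, p = 0.1, the smallest possible).

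**Figure D2:**
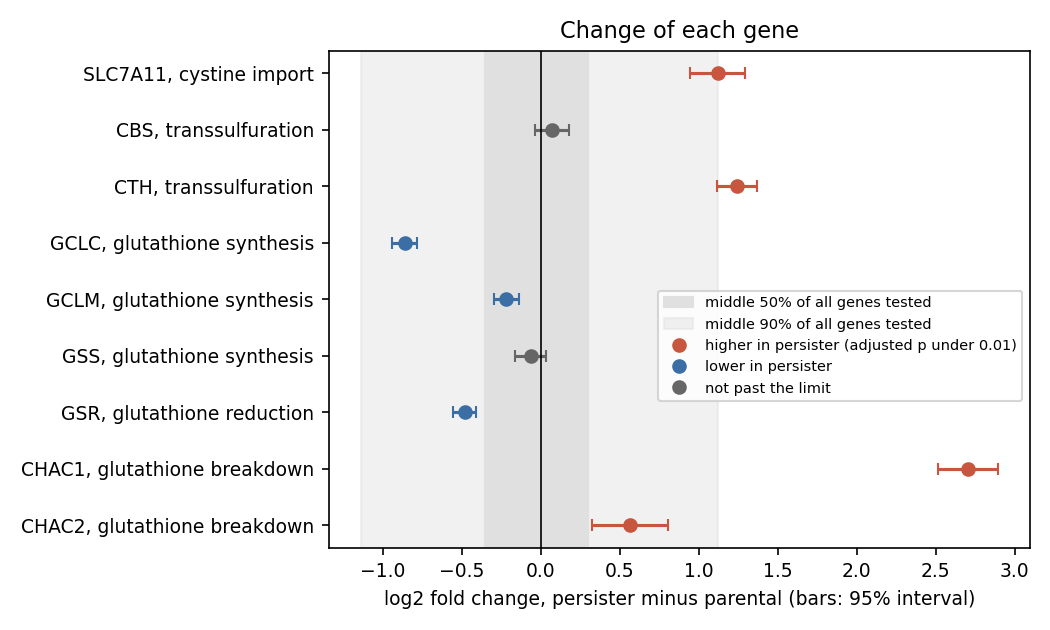
Log2 fold change of the 9 genes, persister minus parental (horizontal axis), with 95% intervals from edgeR's quasi-likelihood fit. Red points were higher and blue points lower at an adjusted p under 0.01, gray points did not pass, and the shaded bands hold the middle 50% and 90% of all genes tested. CHAC1 (2.71) and CTH (1.24) lie to the right of the outer band, SLC7A11 (1.12) at its edge, and GCLC (-0.86) is the lowest of the 9.

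RefSeq promoter windows of GRCh38.p14, from 250 bases before to 50 after a gene's start, were found by symbol for 6 of the 9 genes (CHAC1, CHAC2, CTH, CBS, GCLC and GCLM). They were searched on both strands for 3 motifs: the core TGATGNAA of the C/EBP-ATF response element, which ATF4 binds, the cAMP response element TGACGTCA, and the core TGACNNNGC of the antioxidant response element, which NFE2L2 binds with small Maf proteins. Of all 35116 windows, 3.62%, 1.85% and 13.3% held these motifs. Of the 6 genes searched, only CHAC1 had the first core, GCLM and CBS each had the third, and none had the second. SLC7A11, GSS and GSR had no window and were not searched. Starts here are those of RefSeq: that of CHAC1 is the start of its MANE Select transcript CHAC1-203, that of GCLM is the start of GCLM-201, and that of CBS, from 1 of its 3 windows, is 1 base from the start of CBS-201. The GENCODE genes given above reach further upstream, since they include transcripts that start there. The CHAC1 match thus lies 300 to 307 bases inside the GENCODE gene and the CBS match 483 to 491 bases inside its own. The matched stretches are printed 5′ to 3′ on the strand of the gene, with the match, which is the reverse complement of the core in each, in capitals.
CHAC1, chr15:40953251-40953280, C/EBP-ATF core 209 to 202 bases before the RefSeq start: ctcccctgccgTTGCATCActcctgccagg
GCLM, chr1:93909446-93909475, antioxidant core 34 to 26 bases before the RefSeq start: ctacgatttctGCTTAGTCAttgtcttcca
CBS, chr21:43076442-43076471, antioxidant core 83 to 75 bases before the RefSeq start of 1 of 3 windows: cccggctctggGCGCGGTCAcgcggggcgc
A match describes the letters of a window and is not a bound site. The 2 genes with the antioxidant core did not move alike, since GCLM fell and CBS did not pass the limit. No match was found in the windows of CHAC2, CTH and GCLC, which says only that these letters are not there.

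Levels can be compared between genes only per length. TPM values, which are transcript counts divided by annotated transcript length and scaled to the same sum in each library, put the 9 genes in parental cells in the order GCLM, GCLC, GSR, GSS, SLC7A11, CBS, CTH, CHAC1, CHAC2. Each gene was above the next in every parental library, except that CHAC1 and CHAC2 overlapped. GCLM had 296 ± 4.03 TPM (SD, n = 3) and GCLC 263 ± 13.7 TPM, each summed over its transcripts. This is 1.13 TPM of GCLM for each of GCLC, but it rests in part on short GCLC transcripts, which weigh more per count. GCLC-210 (553 bases) and GCLC-203 (592 bases) held 7.75% and 5.04% of GCLC's counts in parental libraries. The transcripts with most counts were less alike. GCLM-201 (4883 bases) had 411, 405 and 409 CPM in parental replicates 1, 2 and 3, and GCLC-214 (3785 bases) 118, 149 and 153 CPM. SLC7A11 had 93.3 ± 9.75 TPM, CHAC1 6.58 ± 0.980 TPM and CHAC2 5.55 ± 0.502 TPM.

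In persister cells the order was GCLM, SLC7A11, GCLC, GSR, GSS, CBS, CHAC1, CTH, CHAC2, and each gene was above the next in every persister library. SLC7A11 had moved from the fifth place to the second with 205 ± 21.6 TPM, past GCLC at 157 ± 8.31 TPM and GSR at 138 ± 4.27 TPM. The CHAC1 level per length reached 44.6 ± 1.34 TPM, above CTH at 36.5 ± 1.60 TPM. GCLM at 269.9 ± 14.1 TPM was then 1.72 times GCLC, and GSS kept its TPM (115 ± 3.23 against 115 ± 7.90). TPM depends on the annotated lengths and on 95.8% of the transcript counts, those whose transcripts were matched. The place of SLC7A11 rests on the 9645 bases annotated for SLC7A11-201, which held 99.6% of its counts in parental libraries. By CPM, without division by length, SLC7A11 was above GCLC in parental libraries too (454 against 278 on average). The place of GCLC in both orders also depends on how its counts were divided among short and long transcripts.

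**Figure D3:**
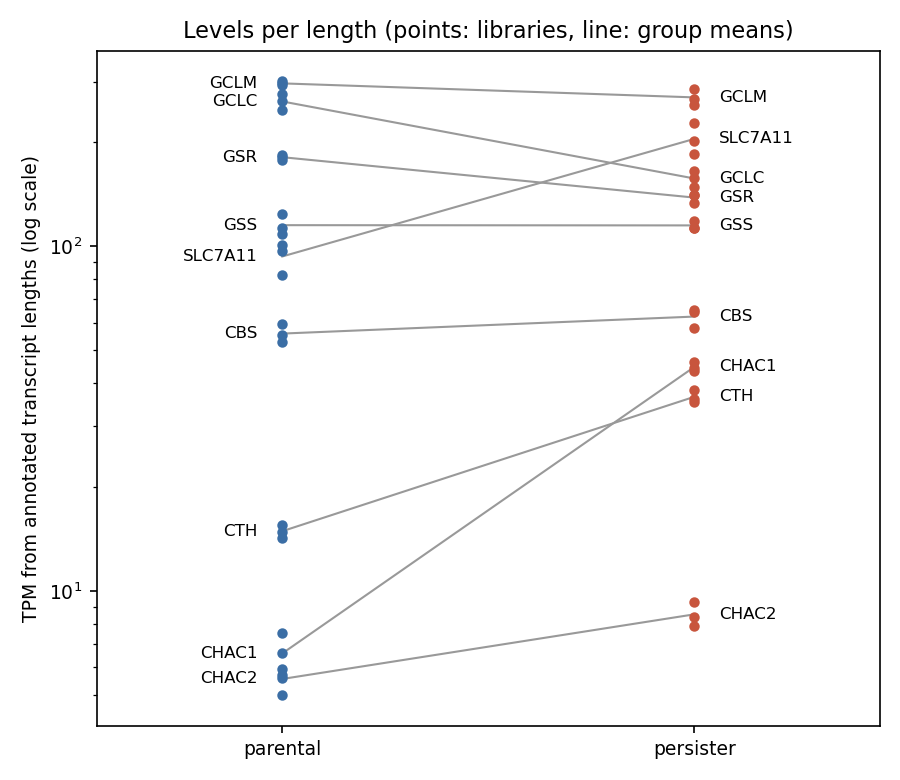
TPM of the 9 genes from annotated transcript lengths (vertical axis, log scale) in the parental and persister libraries (points), with lines joining the group means. The line of SLC7A11 crosses those of GSS, GSR and GCLC, and that of CHAC1 rises from 6.58 to 44.6 TPM past CTH.

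The transcript table lists 82 transcripts of the 9 genes, of which 41 had enough counts to be tested over all 54499 transcripts. At the same limit 3 were higher and 3 lower, while 7.80% of all transcripts tested were called, 3.89% higher and 3.91% lower. The 3 higher were SLC7A11-201 (log2 fold change 1.099, edgeR adjusted p = 0.00110), CTH-202 (1.20, adjusted p = 0.000371) and CHAC1-203 (2.71, adjusted p = 0.000119). Each is the MANE Select transcript, the 1 chosen to represent its gene, and they held 99.6%, 87.5% and 92.7% of their genes' counts in parental cells. The 3 lower were GCLC-214 (-0.81, adjusted p = 0.00419), GCLC-210 (-0.84, adjusted p = 0.00619) and GSR-201 (-0.53, adjusted p = 0.000335). When each library was left out in turn, GCLC-214 passed only without parental replicate 1 (edgeR adjusted p up to 0.0239 without another) and GCLC-210 only without parental replicate 2 (up to 0.0357). GSR-201 and the 3 higher transcripts passed in each of these 6 fits.

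GCLC was the gene whose counts were spread over most transcripts, with 51.7% ± 7.91 (SD, n = 3) on GCLC-214 in parental and 52.9% ± 2.31 in persister libraries. All 10 tested transcripts of GCLC had a log2 fold change below 0, from -1.50 to -0.14. In 7 of them the groups did not overlap, against 38.8% of all transcripts tested. GCLM-201 (-0.23, edgeR adjusted p = 0.0107) and CHAC2-201 (0.54, edgeR adjusted p = 0.0598) did not pass among the transcripts although their genes did.

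SLC7A11-202, a transcript annotated as a target of nonsense-mediated decay, had 86, 44 and 48 counts in parental and 32, 22 and 48 counts in persister libraries. It did not rise with SLC7A11-201, but its change did not pass the limit (log2 fold change -0.73, standard error 0.41, edgeR adjusted p = 0.315). Its share of the gene's counts was 0.378% ± 0.112 (SD, n = 3) in parental and 0.108% ± 0.0340 in persister libraries. The short transcript CHAC1-202 had 0, 3 and 0 counts in parental and 25, 31 and 17 counts in persister libraries, without overlap and short of the limit (edgeR adjusted p = 0.0509).

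For CBS, the assignment to transcripts differed between libraries of 1 condition: CBS-203 had 611, 44 and 798 counts in the persister libraries, and CBS-201 had 67, 325 and 141. None of the 7 CBS transcripts tested passed the limit. A test of transcript usage, whether the transcripts of a gene change in proportion (diffSpliceDGE in edgeR, Simes p per gene), called 1.88% of 10545 genes and 0 of the 8 members with more than 1 tested transcript. At an unadjusted p under 0.05 there was 1, SLC7A11, with an edgeR adjusted p = 0.617.

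**Figure D4:**
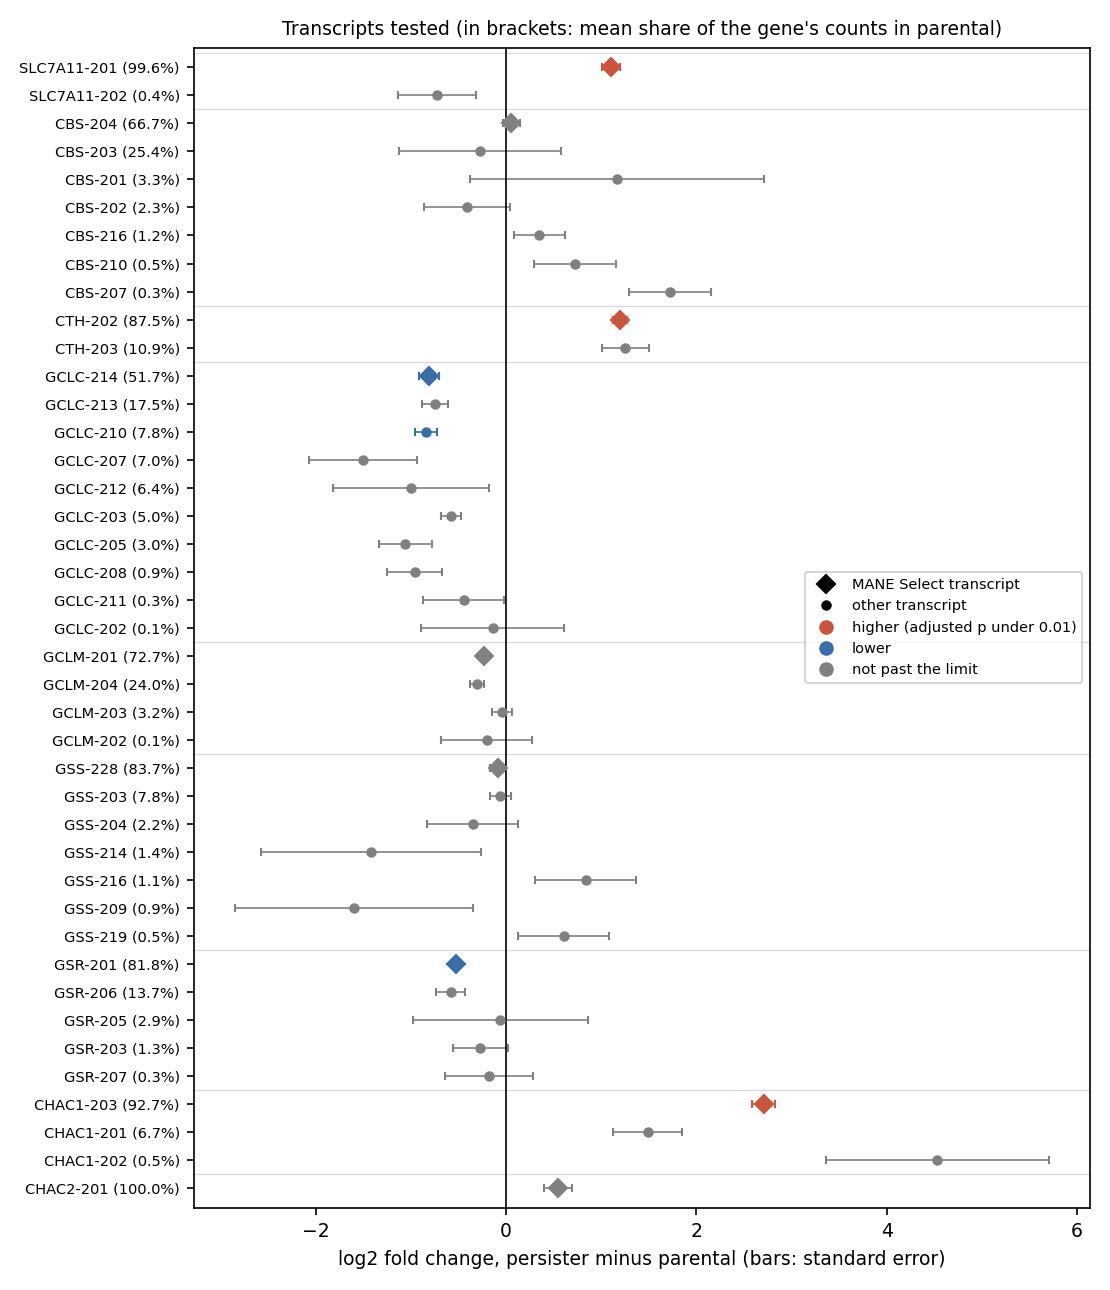
Log2 fold change of the 41 tested transcripts of the 9 genes, persister minus parental (horizontal axis, bars are standard errors), with the mean share of the gene's counts in parental libraries in brackets. Diamonds are MANE Select transcripts, and colors give the calls. The 10 GCLC transcripts all lie below 0, and the widest bars belong to transcripts with small shares, such as CBS-201.

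A wider list of 76 genes of cysteine and glutathione metabolism and its regulators was set by role, and 67 of them were tested. In persister cells 27 were higher and 24 lower, which is 76.1% of those tested against the 56.8% of all genes, and the median log2 fold change of the list was 0.040. The list was chosen with earlier results of these data known, so these shares cannot show an excess of change. The counts by role that follow cover few genes each and stand beside 28.7% higher and 28.1% lower among all genes tested. Among transporters of cystine, cysteine and glutamate, 4 of 7 were higher and 0 lower, and 3 did not pass the limit. Of these 3, SLC1A3, named after its values were seen, was scarce and lower without overlap (log2 fold change -0.88, edgeR adjusted p = 0.0160). SLC1A4, an exchanger of small neutral amino acids, had 14.0 ± 1.52 CPM (SD, n = 3) in parental and 96.5 ± 1.28 CPM in persister libraries (log2 fold change 2.78, edgeR adjusted p = 9.93e-11). In the methionine cycle, which provides homocysteine to CBS, 3 of 6 were higher and 3 lower, and all moved by little, from MTRR (0.34) to MTAP (-0.32).

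Among enzymes that break down cysteine and sulfide, 5 of 9 were lower and 2 higher. SQOR, the mitochondrial sulfide oxidoreductase, had 56.2 ± 2.20 CPM (SD, n = 3) in parental and 28.9 ± 1.19 CPM in persister libraries (log2 fold change -0.96, edgeR adjusted p = 3.79e-08), and the persulfide dioxygenase ETHE1 fell by 0.81 on the log2 scale. The aminotransferase GOT1 rose by 0.52. Of the genes of the gamma-glutamyl cycle and of peptide cleavage, 4 of 8 were lower and 2 higher. ANPEP, a surface peptidase able to cleave cysteinylglycine, had 203, 212 and 202 CPM in parental and 65.9, 68.2 and 65.8 CPM in persister libraries, the largest fall among the 67 genes (log2 fold change -1.63, edgeR adjusted p = 1.08e-10). GGT1 (0.42), which has near-identical copies, and GGT7 (0.32) were higher, and the oxoprolinase OPLAH (-0.54) was lower.

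Among enzymes that use glutathione, together with thioredoxin and its reductases, 7 of 16 were higher and 4 lower. The glutathione peroxidases went different ways, with GPX3 at 1.12 and GPX2 at -0.94 on the log2 scale (edgeR adjusted p = 2.74e-08 and 3.10e-08). GPX4 had 307, 318 and 304 CPM in parental and 297, 327 and 314 CPM in persister libraries, overlapping groups that did not pass the limit (adjusted p = 0.765). RNA levels do not give protein levels, and the study reports depleted GPX4 protein in PC9 persister cells by western blot. TXNRD1, the cytosolic thioredoxin reductase, had 1954 ± 30.4 CPM (SD, n = 3) in parental and 3009 ± 27.1 CPM in persister libraries (log2 fold change 0.62). ESD, which hydrolyzes S-formylglutathione, was lower (-0.49).

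Of the 7 carriers of glutathione and its conjugates, 5 were lower and 2 higher. The efflux pumps ABCC3 and ABCC2 fell by 1.38 and 1.35 on the log2 scale (edgeR adjusted p = 3.72e-10 and 4.54e-10), from 184 ± 4.44 to 71.0 ± 2.00 CPM and from 164 ± 2.42 to 64.2 ± 2.27 CPM. ABCC4 rose by 0.84. The related mitochondrial carriers SLC25A39, a glutathione importer, and SLC25A40, which is named after its values were seen, moved in opposite directions, by 0.24 and -0.63 (edgeR adjusted p = 0.00669 and 8.78e-06). GLUD1, the mitochondrial glutamate dehydrogenase, fell by 0.36.

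Of 11 transcription regulators of these genes, 6 were higher and 2 lower. ATF4, a translationally controlled activator of amino acid supply genes, had 502, 514 and 505 CPM in parental and 570.1, 605 and 590.2 CPM in persister libraries, a small rise of its RNA (log2 fold change 0.21, edgeR adjusted p = 0.000242). ATF3 (1.60) and CEBPG (1.06) rose more. NFE2L2, the activator at antioxidant response elements, had 237, 229 and 225 CPM in parental and 227, 232 and 232 CPM in persister libraries, and the groups overlapped, with 0.0021 as the log2 difference (edgeR adjusted p = 0.962). MAFF, a small Maf protein, fell by 1.44 and BACH1, a repressor at the same elements, by 0.69. MAFG, another small Maf protein, which is named after its values were seen, rose by 0.20 (edgeR adjusted p = 0.00537). RNA levels do not give the activity of these proteins, and their part in the changes of the 9 genes was not tested.

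**Figure D5:**
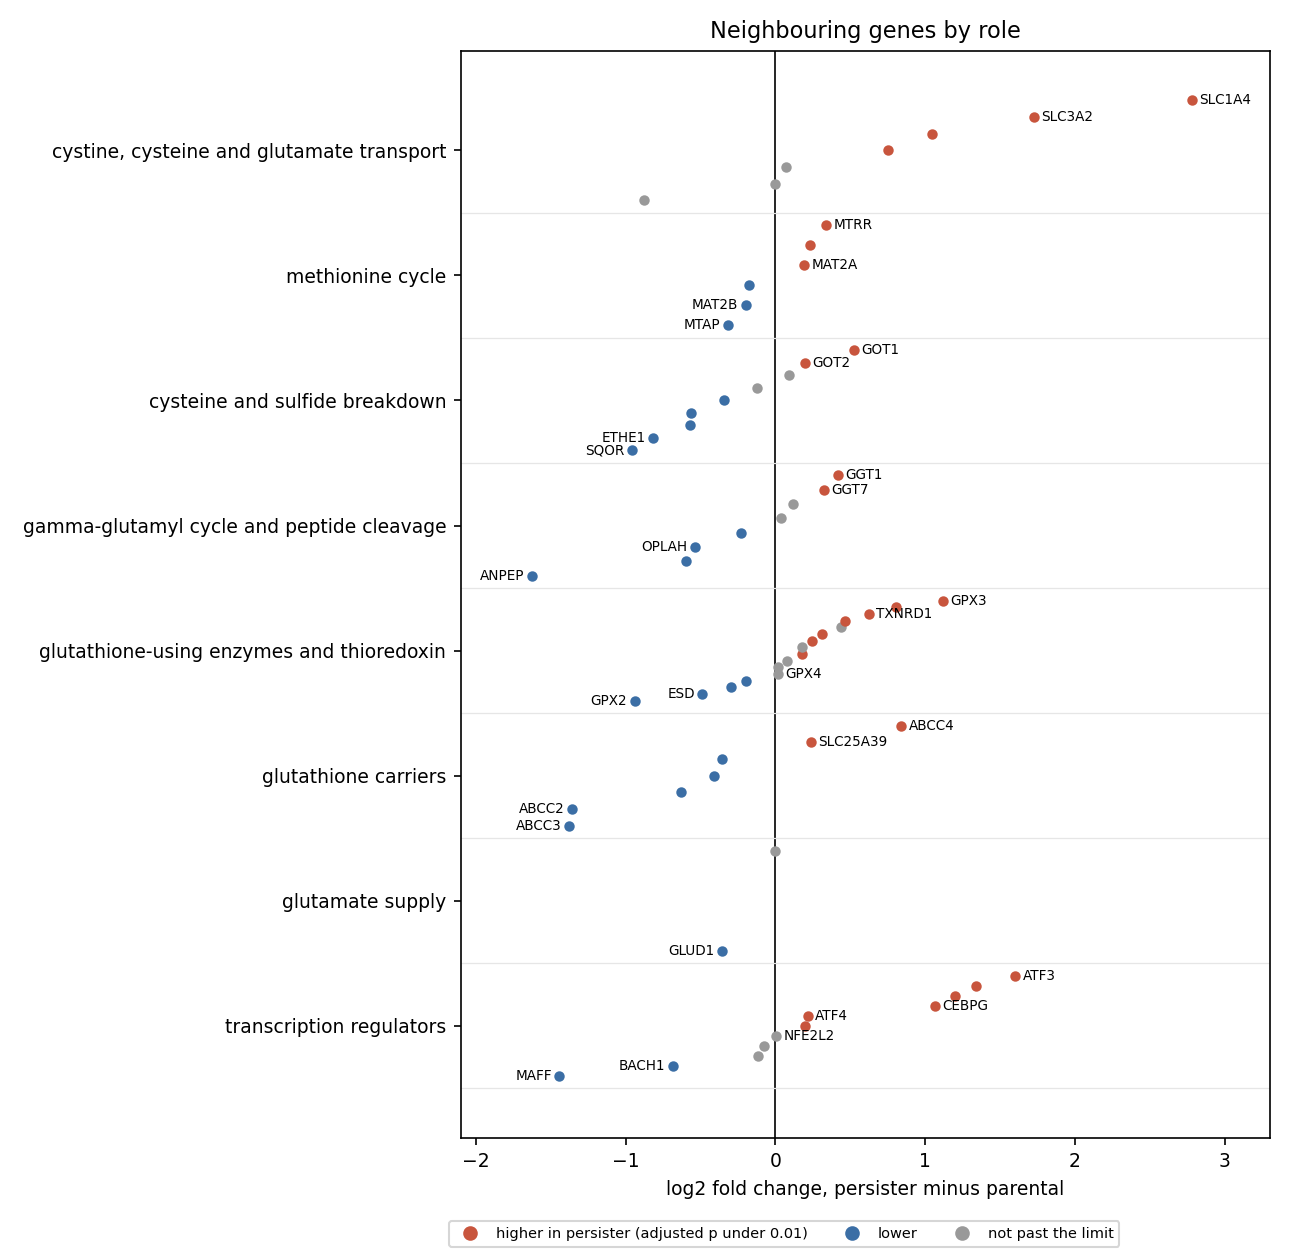
Log2 fold change, persister minus parental (horizontal axis), of the tested genes of the wider list described here, 1 row for each role and 1 point for each gene, with the genes of smallest p in each direction and role, and GPX4, ATF4 and NFE2L2, named. Red points were higher and blue points lower at an adjusted p under 0.01, and gray points did not pass. No transporter is blue, though 3 of the 7 are gray, and 5 of the 7 carriers are blue.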

How the data were processed

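Libraries were grouped by the sample labels. Erlotinib dose was taken from the study's methods, and numbers of cultures from a figure legend of the study. From poly-A selected RNA, the authors trimmed reads (bases2fastq), applied FASTP and quantified them by pseudoalignment with Kallisto 0.46.1 against Ensembl 96 transcripts of GRCh38. The estimated counts (expected counts) they deposited are whole numbers per gene symbol and, in a second table, per transcript, and are not normalized. Strand settings of the counting are not given in the sources used here.

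Genes passing filterByExpr were TMM-normalized and tested in edgeR 4.0.16 (R 4.3.3), with glmQLFit and glmQLFTest. No block was used, p-values were adjusted by Benjamini-Hochberg over all genes, and the limit was 0.01. The standard error is the log2 fold change divided by the square root of F. Transcripts were tested likewise, and usage with diffSpliceDGE. Names, coordinates and lengths are from GENCODE 44 (GRCh38), which matched 167067 of 188753 transcripts. Ratios were tested by exact permutation.

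The members and lists were chosen with earlier results of these data known. Named genes are the 9, CBSL, SLC3A2, GPX4, ATF4 and NFE2L2, and in each role of the wider list up to 2 risen and 2 fallen genes with the smallest p and a mean log2 CPM above 1. In the wider list, 1 gene counted there is not reported or plotted here. Same-numbered libraries were not taken as pairs. The tests were tested on simulated data. Alternatives were DESeq2 1.42.0, limma 3.58.1 (voom), other normalizations, filters and limits, a replicate block, each library left out, and gene counts summed from transcripts or over CBS and CBSL.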

Additional observations from a re-analysis of the deposited data

How the results depend on the processing

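The log2 fold changes of all 9 genes kept their direction and their side of the limit in each of the 15 alternatives run for each gene, 135 values in all, and the 40 alternative values of the ratios kept their direction. CBS ran from 0.019 to 0.11 and GSS from -0.12 to -0.032. When a change of more than 2-fold was also required, 3 members were higher and 0 lower, against 4 and 3. This requirement left 8 higher and 4 lower genes of the wider list, against 27 and 24, and 826 higher and 865 lower genes of all tested, against 4193 and 4114. At an adjusted p under 0.05, 6 member transcripts were higher and 7 lower. With a replicate block 1 member transcript was lower, against 3, and between 1 and 2 with a library left out (1 without parental replicate 3, persister replicate 2 or persister replicate 3). The transcript kept in these fits was GSR-201, and the calls lost were GCLC-214 and GCLC-210. Without persister replicate 1 both GCLC calls were lost (edgeR adjusted p = 0.0235 and 0.0287) though 2 transcripts were lower. The other of these 2 was thus not among the 3 of the main fit. Other counts with a library left out stayed within 1.5 times the main count. Replicate numbers did not pair the libraries: deviations of same-numbered libraries from their group means correlated at 0.022 to 0.12, only 1 of 3 pairs was above 0.1, and parental replicate 2 correlated best with persister replicate 3. The block changed no call of the 9 genes. CHAC2 and the transcripts with few counts are limited by depth, and intervals of the 9 genes by the 3 libraries of each condition.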
